A study of Mus musculus with 4 samples.

Results

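The 5 probes described here report miR-199 and miR-214, microRNAs (miRNAs) known from embryonic mesenchyme. On the array they are named mmu-miR-199a-3p, mmu-miR-199a-5p, mmu-miR-199b*, mmu-miR-214 and mmu-miR-214*, and the mouse prefix is left off below. They were selected by their names and make up 5 of the 696 miRNA probes on the array. Of the 5, 3 are miR-199 probes and 2 are the arms of miR-214. Untreated mice of the outbred ICR strain gave the embryos, whose lower-jaw (mandibular) molar germs supplied total RNA at embryonic day 11 (E11), E12, E14 and E16. Each stage was measured on 1 Agilent miRNA array with 1 colour (Cy3), so no stage has a replicate, and the sources used here give no number of embryos per array. No test between stages was therefore possible. An error printed with ± is the measurement error that the array software states for a signal, or the combination of such errors in a difference. Differences between embryos or litters are not part of it.

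A miRNA precursor is a short hairpin whose 5′ and 3′ arms can each yield a mature miRNA. In older names the star marks the arm taken to be the minor product. A mature miRNA pairs with messenger RNAs mainly through its seed, bases 2 to 8, and lowers their translation or stability. Mir199a-2 and Mir214 lie in the long non-coding RNA gene Dnm3os, which overlaps the dynamin gene Dnm3 and is known as the transcript from which miR-199a and miR-214 are made together. Dnm3os is active in mesenchyme of many embryonic organs, where the transcription factor Twist1 is a known activator, and loss of Dnm3os disturbs skeletal development in mice. A molar germ holds an epithelium, from which the enamel-forming cells arise, and a neural crest derived mesenchyme, which gives the dentin-forming cells and the pulp.

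The mature sequences show which transcripts each probe can report. Of the 5 members, 4 matched a mature entry in RefSeq (build GRCm38.p6), with the probe miR-214 taken as miR-214-3p and miR-214* as miR-214-5p; miR-199b* is named only. The sequences run 5′ to 3′, with the seed in capitals.

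miR-199a-3p: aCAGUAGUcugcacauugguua

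miR-199a-5p: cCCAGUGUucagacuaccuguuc

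miR-214: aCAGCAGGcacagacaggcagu

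miR-214*: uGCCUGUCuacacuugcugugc

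The 4 seeds differ from each other. Those of miR-199a-3p and miR-214 come closest, with 5 of 7 bases the same at the same position. The sequence of miR-199a-3p is listed for 3 genes: Mir199a-2 in Dnm3os (chromosome 1), Mir199a-1 within the bounds of Dnm2 (chromosome 9), and Mir199b within Dnm1 (chromosome 2), where the same 22 bases are called miR-199b-3p. That of miR-199a-5p is listed for 2 genes, Mir199a-1 and Mir199a-2. Both miR-214 arms come from Mir214 alone. The miR-199a signals may therefore hold RNA from outside Dnm3os, miR-199b* is by its name a product of Mir199b on chromosome 2, and only the miR-214 arms are listed for the Dnm3os locus and nowhere else.

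The hairpins of the Dnm3os pair are shown with both mature arms in capitals, 5p first, since the results turn on how arms and neighbours differ. Mir199a-2 lies at chr1:162217814-162217923 and Mir214 at chr1:162223368-162223477 (GRCm38.p6, plus strand), with 5444 bases between them.

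Mir199a-2: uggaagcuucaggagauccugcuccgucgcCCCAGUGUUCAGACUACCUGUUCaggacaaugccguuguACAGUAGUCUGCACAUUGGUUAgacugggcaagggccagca

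Mir214: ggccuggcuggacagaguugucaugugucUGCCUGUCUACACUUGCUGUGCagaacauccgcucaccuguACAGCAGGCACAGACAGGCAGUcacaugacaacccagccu

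All 5 members were detected on all 4 arrays, giving 20 detected values whose stated error was 7.26% to 11.9% of the signal. The arrays detected 209, 221, 249 and 250 of the 696 miRNAs at E11, E12, E14 and E16. Deposited signals were generally brighter at later stages: the 75th percentile of the 197 miRNAs detected on every array was higher than at E11 by 0.67, 1.08 and 1.44 (log2) at E12, E14 and E16. The main scale below divides this out, so that a scaled difference is the log2 difference of the signals minus this shift, always later minus earlier. Because the shift is as large as several of the differences, the deposited signals, the median of all miRNAs and the range over 6 scalings are given beside it. The E14 array held 24 of the 197 miRNAs at least 2-fold above E12 and again at least 2-fold above E16; no member was among them.

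The deposited signals of mmu-miR-199a-3p, the 3p arm known among its roles to repress Mtor and Met, were 5055 ± 366.8 at E11, 9031 ± 659 at E12, 4824 ± 352 at E14 and 5760 ± 422 at E16. E12 stood above the other stages, which lay close to each other. miR-199a-5p is the opposite arm in Mir199a-1 and Mir199a-2, while the 3p sequence is also listed for Mir199b. The 5p signals were 1455 ± 117.2 at E11, 2578 ± 207 at E12, 2161 ± 172 at E14 and 2315 ± 186 at E16. Here E11 was the low stage, and the 3 later ones lay within 1.19-fold of each other from E12 to E14 and 1.07-fold from E14 to E16. The probe mmu-miR-199b* gave 1583 ± 126.2 at E11, 2832 ± 224 at E12, 2481 ± 194 at E14 and 3234 ± 247 at E16. It too was lowest at E11, but highest at E16.

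The signals of mmu-miR-214, the 3p arm of its hairpin and known to target Ezh2 and Atf4, were 2787 ± 209.8 at E11, 2460 ± 185 at E12, 1636 ± 125 at E14 and 1320 ± 101 at E16. Unlike any miR-199 probe, it was highest at E11 and lower at each stage that followed, although on the deposited signals E11 and E12 overlap within their errors. Its opposite arm, miR-214*, gave 32.0 ± 3.6 at E11, 43.4 ± 4.9 at E12, 28.9 ± 3.4 at E14 and 31.8 ± 3.8 at E16. Its E11, E14 and E16 signals overlap within their errors, with E12 above them. Signals of different probes are not set against each other, since probes bind with different strength.

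**Figure D1:**
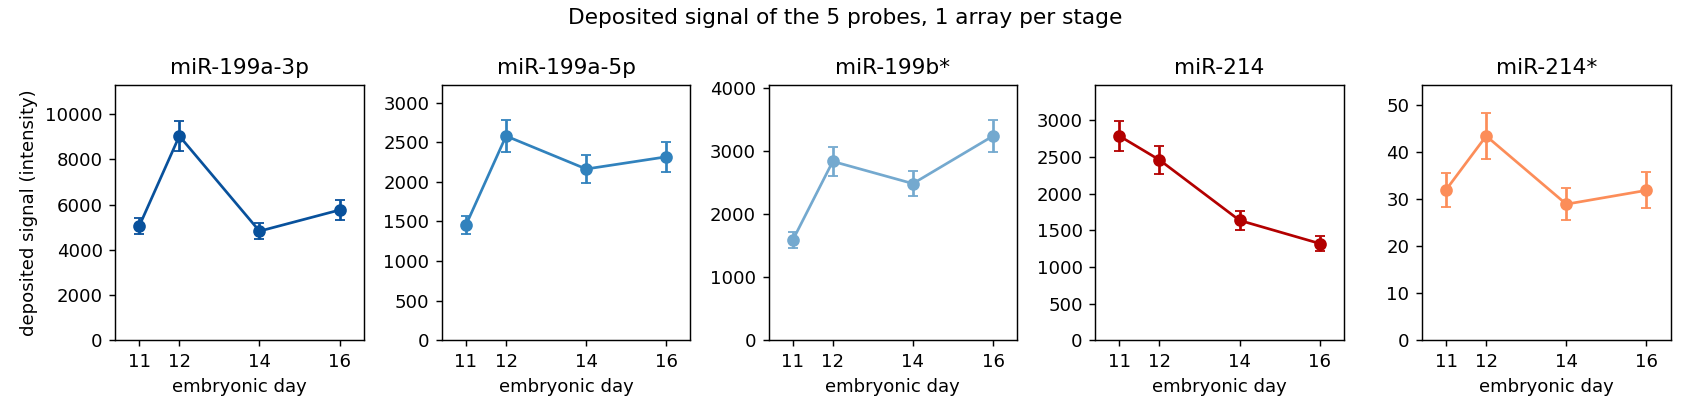
Deposited signal of each probe (intensity, linear axis from 0) against embryonic day, 1 array per stage, with bars for the stated error of the signal. miR-214 runs down from 2787 at E11 to 1320 at E16, while the 3 miR-199 probes are higher at E12 than at E11 and miR-214* has its highest signal, 43.4, at E12.

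On the scaled levels, the order of stages for miR-214 was E11, E12, E14, E16, and each gap exceeded 4 times its error: 0.85 ± 0.15, 0.999 ± 0.15 and 0.67 ± 0.16. Each step was downward under all 6 scalings, with ranges of -1.03 to -0.18, -1.35 to -0.59 and -0.67 to -0.26. For miR-199a-3p and miR-199a-5p the order was E12, E11, E14, E16. In both, E12 and E11 were within about 1 error of each other (0.17 ± 0.15 and 0.16 ± 0.16), and the gap that stood out lay between E11 and E14, at 1.15 ± 0.15 for the 3p arm and 0.51 ± 0.16 for the 5p arm. E14 and E16 did not differ beyond their error for miR-199a-3p (0.10 ± 0.15), and for miR-199a-5p the gap was 0.26 ± 0.16. The order for miR-199b* was E12, E11, E16, E14, with neither the first pair (0.17 ± 0.16) nor the last (0.03 ± 0.16) apart by much more than its error. For miR-214* the order was E11, E12, E14, E16, and the gap between E12 and E14 (0.996 ± 0.23) exceeded its error clearly, whereas those on either side (0.23 ± 0.23 and 0.22 ± 0.24) did not.

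From E11 to E12 the 3 miR-199 probes moved together and miR-214 fell relative to them. The scaled differences of miR-199a-3p, miR-199a-5p and miR-199b* were 0.17 ± 0.15, 0.16 ± 0.16 and 0.17 ± 0.16, a spread of 0.01 that is far smaller than any of their errors (0.58 to 0.77 with quantile normalization, which is not a constant shift). The 3 probes are not independent, since the miR-199a-3p sequence is listed for the genes of both others. Whether any of the 3 probes also detects another's miRNA was not tested. Their sign depends on the scale: on the deposited signals all 3 were higher by 0.82 to 0.84, and with the 75th percentile taken over all probes they lay between -0.03 and -0.01. miR-214 was at -0.85 ± 0.15, or 1.80-fold lower, with its minor arm between the groups at -0.23 ± 0.23 (0.44 on the deposited signals). The median of 201 miRNAs detected at both stages was -0.20, below all 3 miR-199 probes and above miR-214. No member was at least 2-fold higher or lower, against 9.45% of all miRNAs higher and 8.46% lower.

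The unequal change itself does not depend on any constant scaling of an array, which cancels when the difference of 1 probe is subtracted from that of another. From E11 to E12 miR-214 changed by -1.01 ± 0.18 (log2) against the mean of the miR-199 probes, a 2.02-fold shift of the ratio. Against the single probes the value was -1.02 ± 0.21 for miR-199a-3p, -1.005 ± 0.22 for miR-199a-5p and -1.02 ± 0.22 for miR-199b*. Quantile normalization gave -1.12 against their mean. With miR-214* in place of miR-214 the value was -0.39 ± 0.25, less than 2 times its error.

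Between E12 and E14 every member was lower, under each of the 6 scalings, and the miR-199a-3p signal parted from that of miR-199a-5p. miR-199a-3p was at -1.31 ± 0.15, or 2.49-fold lower (-1.44 to -0.90 over the 6 scalings). It was the member furthest down, and 6.60% of the 212 miRNAs detected at both stages lay below it. miR-214 (-0.999 ± 0.15) and miR-214* (-0.996 ± 0.23) were 1.999-fold and 1.99-fold lower, just short of 2-fold, and the miR-214 arms differed by far less than the error of 0.28 at this step. The miR-199 5p probes moved less, with -0.66 ± 0.16 for miR-199a-5p and -0.60 ± 0.16 for miR-199b*. The all-miRNA median was -0.40, above all 5. By the 2-fold rule 1 of 5 members was lower and 0 higher, against 15.1% and 12.7% of all miRNAs. The miR-199a-3p probe changed by -0.65 ± 0.22 against the miR-199a-5p probe in this comparison (-0.58 with quantile normalization). Since the 3p sequence is also listed for Mir199b, this need not be a difference between arms of 1 precursor. The change of miR-214 against the miR-199 mean, at -0.14 ± 0.18, did not exceed its error. It hid unequal parts, 0.32 ± 0.21 against miR-199a-3p, -0.33 ± 0.23 against miR-199a-5p and -0.40 ± 0.22 against miR-199b*.

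From E14 to E16 the miR-199 probes held near their scaled levels while miR-214 was lower again, at -0.67 ± 0.16, or 1.59-fold. The difference was -0.10 ± 0.15 for miR-199a-3p, -0.26 ± 0.16 for miR-199a-5p, 0.03 ± 0.16 for miR-199b* and -0.22 ± 0.24 for miR-214*. The values of both miR-199a arms and of miR-214* turned positive on the deposited signals, at 0.26, 0.10 and 0.14, and quantile normalization placed miR-199a-3p at 0.81. Against the miR-199 mean miR-214 changed by a further -0.56 ± 0.18 (-0.68 with quantile normalization), with -0.69 ± 0.22 against miR-199b*, -0.57 ± 0.22 against miR-199a-3p and -0.41 ± 0.23 against miR-199a-5p. No member was 2-fold higher or lower, beside 7.36% higher and 13.4% lower among 231 miRNAs, whose median was -0.06.

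**Figure D2:**
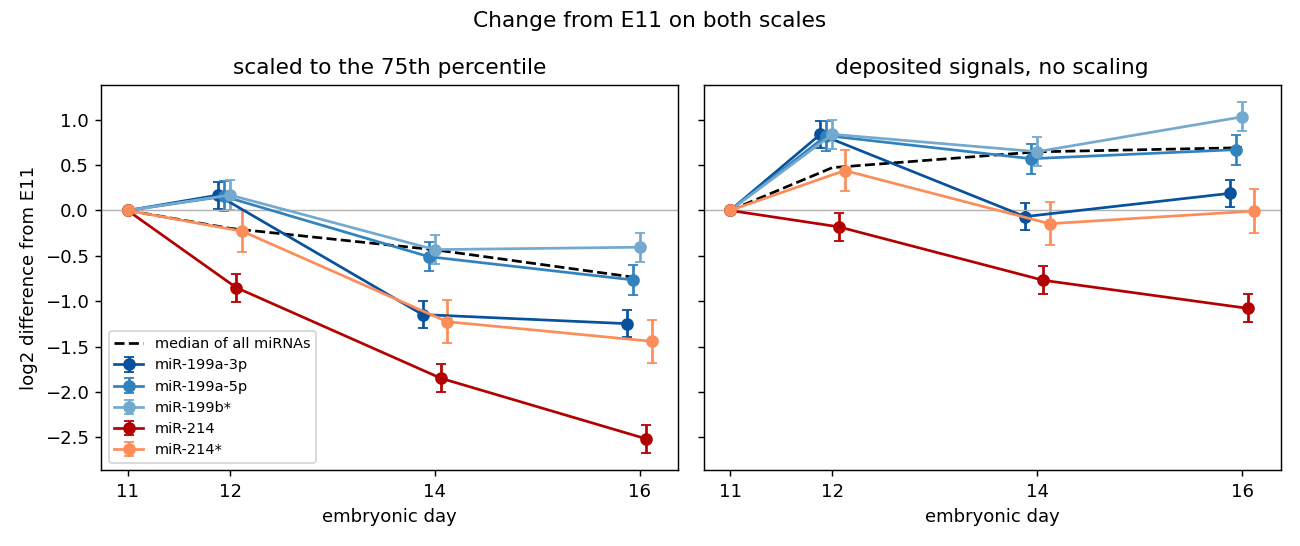
Log2 difference of each probe from E11 against embryonic day, scaled to the 75th percentile (left) and on the deposited signals (right), with bars for the combined stated error and a dashed line for the median over all detected miRNAs. miR-214 lies lowest at every stage on both scales, and the miR-199 probes lie together at E12 and spread afterwards.

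Between the ends of the series, E16 versus E11, miR-214 was 5.71-fold lower (-2.51 ± 0.15) and the order of the members was miR-214, miR-214*, miR-199a-3p, miR-199a-5p and miR-199b*, from lowest to highest. miR-214* was 2.72-fold lower (-1.44 ± 0.24) and miR-199a-3p 2.37-fold lower (-1.25 ± 0.15). The miR-199 5p probes lay at -0.77 ± 0.16 (miR-199a-5p) and -0.40 ± 0.16 (miR-199b*), on either side of the median of all 205 miRNAs (-0.74). Members at least 2-fold lower were thus 3 of 5, where 37.6% of all miRNAs were; at least 2-fold higher were 0, where 13.7% of all miRNAs were. The median of the 5 members was -1.25.

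The scale decides what can be said of most of these values. Of the 5, only miR-214 was lower by at least 2-fold under all 6 scalings (-2.55 to -1.08). miR-214* ranged from -1.48 to -0.01. The miR-199 probes crossed 0: miR-199a-3p ranged from -1.28 to 0.19, miR-199a-5p from -0.80 to 0.67 and miR-199b* from -0.44 to 1.03. On the deposited signals 1 member, miR-214, was at least 2-fold lower (4.39% of all miRNAs were) and 1, miR-199b*, at least 2-fold higher (44.9% were).

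The place of a member among all miRNAs is the same under any constant scaling. miR-214 had the 8th lowest difference of the 205, with 3.41% of miRNAs below it. None of the 7 miRNAs below it had a signal of at least 10 times its error at both stages: among the 101 miRNAs that did, miR-214 was the lowest. That filter depends on the E16 signal, so it can remove miRNAs that were much lower there. Of the 209 miRNAs detected at E11, those undetected at E16 are also outside the 205. The share below was 19.5% for miR-214*, 27.3% for miR-199a-3p, 49.3% for miR-199a-5p and 55.6% for miR-199b*, so the last pair fell in the middle of the array's miRNAs.

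**Figure D3:**
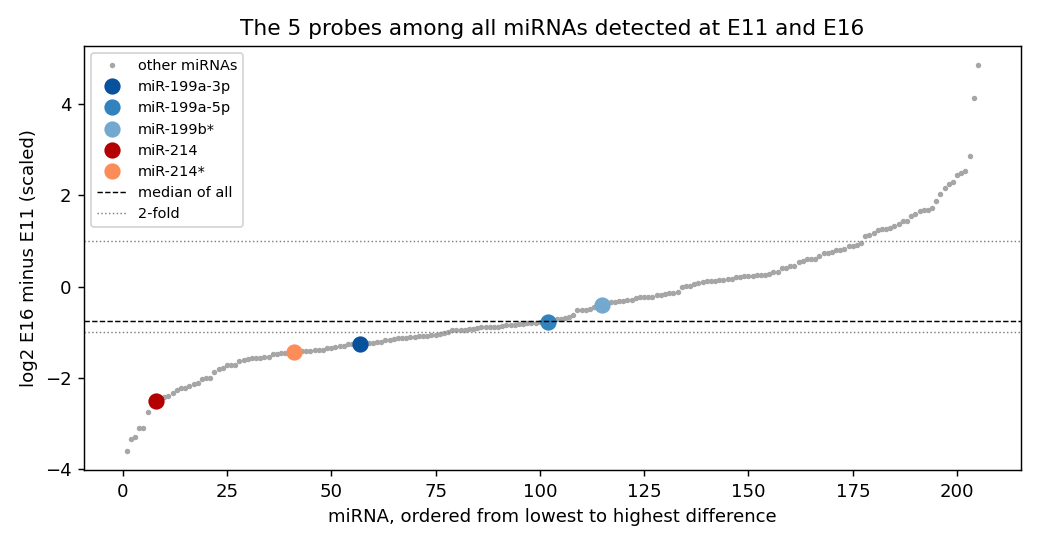
Scaled log2 difference E16 minus E11 of the 205 miRNAs detected at both stages, ordered from lowest to highest, with the 5 probes coloured, the median (-0.74) dashed and 2-fold dotted. miR-214 lies at place 8 and miR-214* at 41, followed by miR-199a-3p at 57, the 5p arm of miR-199a at 102 and miR-199b* at 115.

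Over the whole course miR-214 changed by -1.71 ± 0.18 against the mean of the miR-199 probes, a 3.27-fold shift of the ratio. Most of it, -1.01, fell in the step from E11 to E12 and -0.56 in the step from E14 to E16. The value was -2.11 ± 0.22 against miR-199b*, -1.75 ± 0.23 against miR-199a-5p and -1.27 ± 0.21 against miR-199a-3p. Quantile normalization and the authors' table gave -2.07 against the mean. The ratio to miR-199a-5p and miR-199a-3p concerns miRNAs that are listed for the same host transcript, but the latter are also listed for other genes, whose share of the signal was not measured. From E12 to E16, a comparison added after the values were seen, miR-214 changed by -0.69 ± 0.18 against the miR-199 mean.

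**Figure D4:**
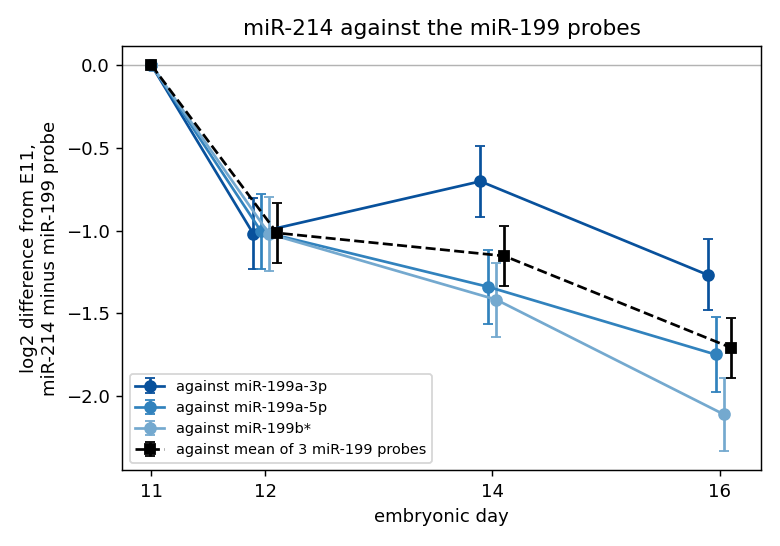
Log2 difference from E11 of miR-214 minus that of each miR-199 probe (circles) and of their mean (squares), by embryonic day, with combined stated errors; constant scaling of an array cancels. All 3 probes give about the same value at E12 and separate by E16, where the values run from -1.27 against miR-199a-3p to -2.11 against miR-199b*.

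The arms of a precursor did not keep step for miR-214. Between E11 and E16 the miR-214 arm changed by -1.07 ± 0.28 against miR-214*, or 2.10-fold (-0.78 with quantile normalization). Of this, -0.62 ± 0.28 lay between E11 and E12 and -0.45 ± 0.29 between E14 and E16, with less than the error in between. Quantile normalization divided the change otherwise, with -0.06, -0.52 and -0.20 for the 3 steps. For miR-199a the 3p arm changed by -0.48 ± 0.22 against the 5p arm from E11 to E16. Under quantile normalization this turned to 0.18. The 3p sequence is also listed for Mir199b, whose share of the signal was not measured, so this pair need not reflect the same precursors. Among 18 pairs of arms detected at both stages, the absolute difference between arms ranged from 0.01 to 2.17 with a median of 0.78. The miR-214 pair was 7th and the miR-199a pair 12th from the largest, and 8 of 18 pairs differed by at least 2-fold. miR-214* was the weaker measurement, with signals 8.37 to 8.87 times their error, against 13.1 to 13.3 for miR-214.

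Other clustered miRNAs were set beside the 4 probes of miR-199a and miR-214, without ranking them, since both arms of each hairpin are counted here and 1 arm in the others. From E11 to E16 the scaled differences of the 4 probes spanned 1.75 (log2), from miR-214 to miR-199a-5p. The cluster of miR-23a, miR-27a and miR-24 spanned 2.11, from miR-24 (0.75 ± 0.15) to miR-27a (2.86 ± 0.22), with miR-23a at 1.36. Because miR-24 is also listed in the cluster of miR-23b and miR-27b, this span is not that of 1 locus. The cluster of miR-322 and miR-351 spanned 0.16, from miR-351 (0.28 ± 0.49) to miR-322 (0.44 ± 0.16), which is less than the error of miR-351. miR-503, also of this cluster, had no value for both stages. The cluster of miR-200a, miR-200b and miR-429 spanned 1.69, from miR-200b (0.60 ± 0.16) to miR-200a (2.28 ± 0.23).

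The miRNAs most like the members in pattern were sought among 192 others detected at every stage, by the root mean square difference of the 4 levels after centring each miRNA on its mean; this is a description over 4 arrays. Nearest to miR-214 were miR-433 (0.06 on the log2 scale), miR-130b (0.12), miR-409-3p (0.12), miR-301b (0.13) and miR-342-3p (0.16), where the median of all 192 was 0.86. Their own differences from E11 to E16 ran from -2.74 (miR-409-3p) to -2.21 (miR-301b). Nearest to the mean of the miR-199 probes were miR-127 (0.04), miR-532-5p (0.05), let-7e (0.07), miR-125b-5p (0.09) and miR-361 (0.10), with a median of 0.49 over all. Each list names only 5 of 192 miRNAs, so the absence of a shared name is no finding. The stated errors of their E16 minus E11 differences ran from 0.15 to 0.37 for the first 5. For the second 5 they ran from 0.15 to 0.55. Which miRNAs lie nearest is therefore not settled. Between members, miR-199a-5p and miR-199b* were 0.15 apart, as were miR-199a-3p and miR-214*. miR-214 was 0.38 from miR-214*, 0.48 from miR-199a-3p, 0.65 from miR-199a-5p and 0.76 from miR-199b*.

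Other miRNAs enriched in mesenchyme were mostly higher at E16 than at E11. Of 15 miRNAs on that list 14 were on the array and 8 were detected at both E11 and E16. Of these 8, 3 were 2-fold higher or more and none was 2-fold lower, beside 13.7% and 37.6% of all miRNAs. Their median was 0.81, beside -0.74 for all miRNAs. miR-22 was at 2.53 ± 0.34, miR-143, known from smooth muscle and fibroblasts, at 1.67 ± 0.39, and miR-195 at 1.16 ± 0.43. The E11 signals of these 3 were the faintest of the 8, at 17.6 ± 3.9, 14.5 ± 3.7 and 13.1 ± 3.7. The lowest detected signal on the E11 array was 5.48. miR-21 was at 0.90 ± 0.16, miR-140, known from cartilage, at 0.73 ± 0.31, miR-100 at 0.40 ± 0.18, miR-140* at -0.14 ± 0.20 and miR-455 at -0.15 ± 0.22. On the deposited signals all 8 were at least 2-fold higher, where 44.9% of all miRNAs were. The median of the 8 was then 2.25, beside 0.69 for all miRNAs. At the 3 steps the list's medians were 0.46, -0.36 and 0.58, so its lowest step lay between E12 and E14. The same step was the lowest for all 5 members and for the median of all miRNAs (-0.20, -0.40 and -0.06). Several listed miRNAs are also made outside mesenchyme. miR-145, miR-145*, miR-10a and miR-10b were detected at no stage.

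**Figure D5:**
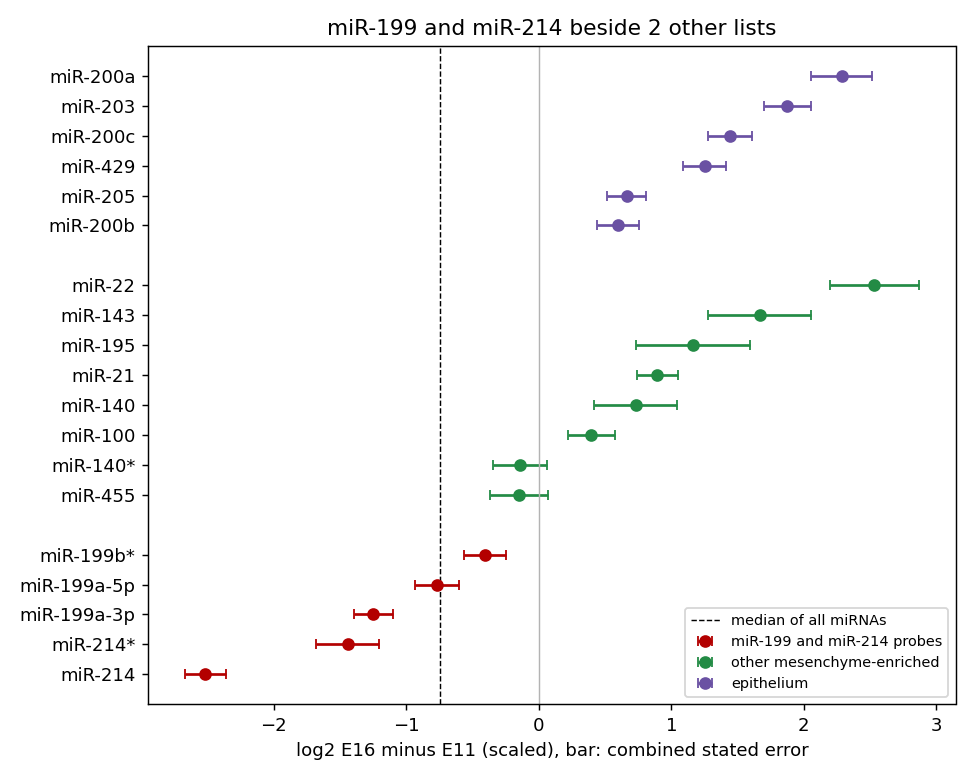
Scaled log2 difference E16 minus E11 with combined stated errors for the 5 probes, the 8 other mesenchyme-enriched miRNAs and the 6 epithelial miRNAs detected at both stages; the dashed line is the median of all miRNAs (-0.74). On this scale all 5 probes lie below all 14 others.

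Epithelial miRNAs were mostly higher at E16 than at E11. Of the 7, 6 were detected at E11, all but miR-141, and 7 from E12 on. Their summed deposited signal was 1795, 3382, 5363 and 9364 at E11, E12, E14 and E16. More of it came from the miR-205 probe than from the others together. Since probes bind with different strength, such a sum gives no relative amounts of the miRNAs. Not every member followed the sum: miR-203 had signals of 119.6 at E12 and 106.1 at E14. Of 6 detected at both ends, 4 were 2-fold higher or more and none was 2-fold lower, beside 13.7% and 37.6% of all miRNAs. The median of these 6 was 1.35. In whole-germ RNA, fewer cells of a type and less RNA per cell cannot be told apart; the part of a changing epithelial share in the members' values was not tested. Of markers of other cell types, none of 4 muscle probes was detected at any stage. Detected were 1 to 2 of 2 erythroid probes (summed signal 404 to 1230), 0 to 2 of 4 leukocyte probes (0 to 146.8), both endothelial probes (239.8 to 791) and 1 to 3 of 6 neural probes (14.6 to 102.8). For each of these 4 lists the deposited sum was lowest at E11 and highest at E16. On the main scale the medians of those detected at both ends were 0.15 (1 erythroid probe), 0.09 (2 endothelial) and 0.02 (1 neural), with no leukocyte probe detected at both. Their part in the members' values was not tested. Of the 4 mesenchyme markers, miR-140, miR-140* and miR-143 were detected at every stage.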

How the data were processed

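RNA (100 ng per array) was end-labelled with Cy3 and hybridised by Agilent's miRNA kit, per the labels' protocols. The deposited values are, per the file headers, total gene signals (linear intensity) for 718 features, of which 696 are miRNAs and 22 controls, each with its error and a detection flag. An undetected feature is written as 0.1. The sources used here name neither software version nor background method. The authors' value table is also intensity; quantile normalization over all 718 features gave its 929 detected values back within 0.1%, so these 2 of the 6 scalings coincide.

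Signals were expressed as log2 relative to each array's 75th percentile over the 197 miRNAs detected on all arrays. The alternatives were that percentile over all probes, the median of those 197, quantile normalization, the authors' table, and the signals as they stand. Errors were propagated from both stated errors as if independent. A miRNA was counted as higher or lower at a difference of at least 2-fold, a rule of size; with 1 array per stage there is no test. The scripts (Python 3.11.15, pandas 2.3.3, numpy 2.4.6) were tested on simulated data. Named were the members, the detected miRNAs of the other mesenchyme list, the 5 nearest patterns to miR-214 and to the miR-199 mean, and cluster extremes. Lists covered mesenchyme, epithelium, muscle, erythroid, leukocyte, endothelial and neural miRNAs. The members and lists were chosen with earlier results of these data known. The number of arrays limits the precision.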

Additional observations from a re-analysis of the deposited data

How the results depend on the processing

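With 1 array per stage there is no measure of variation between embryos, and stated errors leave out the choice of scaling. No paired analysis was possible because each stage has 1 array and no test was made. The value of miR-214 against the miR-199 mean cannot change under the 4 constant scalings, which cancel in it, and the other 2 coincide, so only 2 values exist. These were -1.01 and, with quantile normalization, -1.12 from E11 to E12, -0.14 and -0.26 from E12 to E14, where the first is within its error, -0.56 and -0.68 from E14 to E16, and -1.71 and -2.07 overall.

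Overall values that moved by more than their error were as follows. Median scaling gave -0.73 for miR-199a-3p, -0.25 for miR-199a-5p, 0.11 for miR-199b*, -1.997 for miR-214 and -0.92 for miR-214*. Without scaling miR-199a-3p reversed to 0.19, and the others were 0.67 (miR-199a-5p), 1.03 (miR-199b*), -1.08 (miR-214) and -0.0063 (miR-214*). Quantile normalization and the authors' table both gave 0 for miR-199a-3p, -0.18 for miR-199a-5p, 0.15 for miR-199b*, -2.08 for miR-214 and -2.07 for miR-214 against the miR-199 mean. That last value was -1.27 with miR-199a-3p alone, -2.11 with miR-199b* alone and -0.64 with miR-214* in place of miR-214. By step, the replacement by miR-214* gave -0.39 from E11 to E12 and -0.11 from E14 to E16. From E12 to E14 single probes gave 0.32 (miR-199a-3p), -0.33 (miR-199a-5p) and -0.40 (miR-199b*).

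Counts of members at least 2-fold lower moved with the setting. The percentage after a count is the share of all miRNAs lower by the same rule. Shares for the main setting are given with each comparison above. From E11 to E12 the count was 1 rather than 0 with the percentile over all probes (12.9%) and with a 1.5-fold rule (25.9%). From E12 to E14 it was 1, and became 3 with the percentile over all probes (16.5%), 2 with quantile normalization or the authors' table (15.6%), 0 without scaling (4.25%), 5 with a 1.5-fold rule (36.8%) and 0 with a 3-fold rule (2.83%). From E14 to E16 it was 0, and 1 with a 1.5-fold rule (23.4%). From E11 to E16 it was 3, also with the percentile over all probes (38%). It was 4 with a 1.5-fold rule (52.7%) and 2 with quantile normalization or the authors' table (31.2%). It was 1 with median scaling (17.1%), without scaling (4.39%) or with a 3-fold rule (14.6%). Without scaling 1 member was also at least 2-fold higher, where 44.9% of all miRNAs were. These shifts follow from the constant added by each scaling or from the size of the rule, except for quantile normalization and the authors' table, where the cause was not tested.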
